A study of Fagopyrum tataricum with 9 samples.

Results

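RNA-seq of Tartary buckwheat seeds was compared between 25 DPA (days post-anthesis), the initial maturity stage, and 13 DPA, the green fruit stage. The rule for the comparison took all genes of the 3 libraries of each stage, so 6 of the 9 libraries of the series were compared. The other 3 libraries, from 19 DPA (the discoloration stage), entered the fit to share the estimate of the spread and were otherwise used as an intermediate level. All plants were of the cultivar XIQIAO NO.2, grown in one field and untreated. Per the sample labels the stages were taken from one individual and 3 plants gave the replicates, but the labels do not say that the replicate number marks the plant. Whole seeds were extracted, so seed cover, endosperm and embryo were measured together. In such bulk samples, fewer cells of a type and less RNA per cell cannot be told apart.

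A seed passes between these days from building its tissues to filling them with reserves. Abscisic acid (ABA) is known as the hormone of seed filling and dormancy, gibberellin as its counterpart that favours growth and germination, and auxin and cytokinin as hormones of cell growth and division. In buckwheat the seed is also known for rutin, a flavonol glycoside that is made from phenylalanine by a chain of enzymes that ends with a glycosyltransferase. The reserves themselves are starch, laid down in the endosperm, and storage proteins.

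The 25 DPA libraries held 22383404 to 23689017 counts and the 13 DPA libraries 22002318 to 25811462 counts, so depth was close. Counts above 0 were found for 25695 ± 337 genes at 25 DPA and 28036 ± 313 genes at 13 DPA (SD, n = 3 each). The 3 libraries of 25 DPA were more alike (Pearson's r of log2 CPM 0.960 to 0.963 across genes, which are not independent replicates) than those of 13 DPA (0.905 to 0.956), and r between the 2 stages was 0.648 to 0.795. Within 13 DPA, replicate 2 lay nearest to 19 DPA, with r up to 0.934. There were 289 tested genes at least 4-fold above both other 13 DPA libraries, and at 1 TMM-scaled FPKM or more, in replicate 2, 315 in replicate 3 and 11 in replicate 1.

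The comparison asked which genes a seed near maturity used more, or less, than a green seed. Of the 33940 genes in the files, 23609 had enough counts to be tested, and 9964 of these (42.2%) were DEGs, that is, genes whose p from edgeR's quasi-likelihood test was at most 0.05 after Benjamini-Hochberg adjustment (FDR) and whose level changed at least 2-fold, or 1 on the log2 scale. DEGs were more often lower at 25 DPA (6054 genes, 25.6% of those tested) than higher (3910 genes, 16.6%). Log2 fold changes are given as 25 DPA minus 13 DPA with their standard error, so a positive value means higher at 25 DPA. The median of the falls was -2.57 and the median of the rises 1.84. A change of at least 4 on the log2 scale was reached by 1528 falls and 418 rises, and one of at least 6 by 522 falls and 74 rises. The stages did not overlap in 63.2% of the genes tested, with all 3 libraries of 25 DPA above all 3 of 13 DPA in 28.9% and below them in 34.2%.

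The size and split of these calls depended on how the libraries were scaled. TMM, which assumes that most genes do not change, gave factors of 0.652 to 0.788 at 25 DPA and 1.31 to 1.81 at 13 DPA, and the median log2 fold change over all tested genes was -0.07. With total counts and no factors this median was -1.19, a shift of -1.12, and the DEGs were 12513 lower and 1469 higher at 25 DPA. The share of DEGs that were higher was thus 39.2% with TMM and 10.5% with total counts. Each of the 6054 falls was also called with total counts, whereas 1469 of the 3910 rises were, and 382 rises had a negative fold change there. A rise below therefore means a rise relative to the bulk of the genes, and levels are given as TMM-scaled FPKM (FPKM in which the library total is multiplied by the TMM factor, shortened to scaled FPKM). Limits on level, and the most expressed member of a list, refer to the mean of the deposited FPKM, which carry no TMM factor. A limit was applied to the stage with the higher mean, and the most expressed member was chosen on the mean over both stages.

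The counts themselves showed where the transcripts of a maturing seed were concentrated. The 3910 rises held 67.2 ± 1.19% of the counts at 25 DPA and 21.1 ± 8.28% at 13 DPA (SD, n = 3 each). The 6054 falls held 2.37 ± 0.481% at 25 DPA and 25.6 ± 4.98% at 13 DPA. Those shares describe genes that were called on the same counts. Among the 13 DPA libraries, replicate 2 gave the rises the most (30.4%) and replicate 3 the least (14.6%), and no 13 DPA library came near the 66.1% to 68.5% of the 25 DPA libraries.

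**Figure D1:**
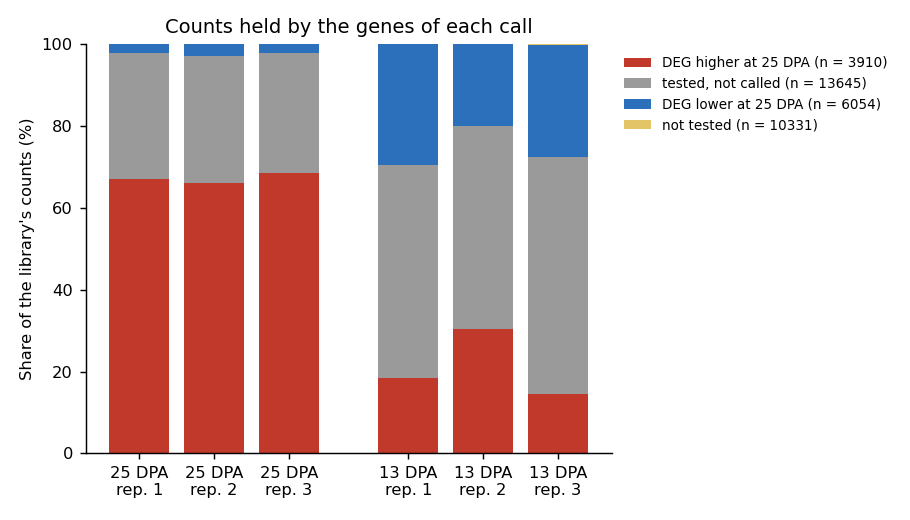
Share of each library's counts (y axis, %) held by genes higher at 25 DPA, genes tested but not called, genes lower at 25 DPA and genes not tested, for the 3 libraries of 25 DPA (left) and of 13 DPA (right). Rises took 66.1% to 68.5% of each 25 DPA library, against 14.6% to 30.4% of each 13 DPA library.

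Rises and falls were not spread evenly over expression levels. In the quintile of tested genes with the lowest mean over the 6 libraries (median 0.795 scaled FPKM), 9.09% rose and 36.9% fell. In the quintile with the highest mean (median 47.3 scaled FPKM), 28.7% rose and 15.7% fell. The median log2 fold change was -0.88 in the lowest quintile and 0.32 in the highest.

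DEGs with 0 counts in a whole stage were more common at 25 DPA. Among the falls, 221 genes had 0 counts in all 3 libraries of 25 DPA, and 195 of them had at least 10 counts in every 13 DPA library. Among the rises, 5 genes had 0 counts in all 13 DPA libraries, and 4 of them had at least 10 counts in every 25 DPA library. Detection differed between the stages. The median over all genes in the files, tested or not, was 30 to 42 counts in the 25 DPA libraries, against 108 to 134 in the 13 DPA libraries. The part of detection in the difference was not tested. These genes were below detection at this depth, since a library with 0 counts is compatible with up to 3 (a limit for counting error alone).

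The 19 DPA libraries showed how far each gene had moved midway. For 3433 of the 3910 rises (87.8%) and 4867 of the 6054 falls (80.4%), the 19 DPA mean lay between the means of the other stages. Over the 3905 rises with counts at every stage, the median gene had covered 42.8% of its log2 change by 19 DPA (quartiles 21.6% and 62.9%). Over 5833 such falls, the median gene had covered 23.97% (quartiles 7.54% and 44.0%). The order of these medians depended on the scaling. With total counts the same rises had a median of 22.1% and the same falls one of 39.7%. Over the 1469 rises that were called with both scalings, the median was 53.6% with TMM and 44.5% with total counts. The 19 DPA mean stood above both other stages for 1024 of the falls (16.9%) and below both for 354 of the rises (9.05%). These positions are descriptions, since the 13 DPA and 25 DPA means they are set against had also chosen the genes.

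**Figure D2:**
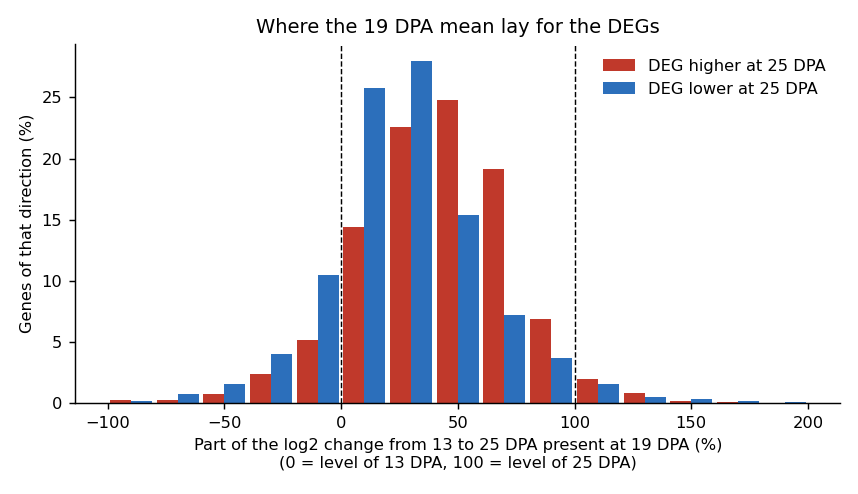
Part of the log2 change from 13 DPA to 25 DPA that was present at 19 DPA (x axis, %, in steps of 20; 0 is the 13 DPA mean and 100 the 25 DPA mean, dashed lines) against the share of the DEGs of that direction (y axis, %). Genes higher at 25 DPA had a median of 42.8% and genes lower at 25 DPA a median of 23.97% with TMM, and 22.1% and 39.7% with total counts.

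The most abundant transcripts rose. The 10 genes that drew the most counts at 25 DPA held 34.8 ± 1.01% of them there and 9.499 ± 6.16% at 13 DPA (SD, n = 3 each), and 9 of the 10 rose, with log2 fold changes over the 10 between 1.899 and 6.17. Of the 10 most abundant genes of 13 DPA, 7 were also among those of 25 DPA, 6 rose and none fell. The number of rises among the 10 genes of 25 DPA was 5 when 13 DPA replicate 1 was left out, 6 without 25 DPA replicate 1 or replicate 3, 10 without 13 DPA replicate 2, and 5 when only the 6 libraries of the 2 stages were fitted. The files pair these identifiers with no gene name.

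Of the 10, FtPinG0004979700.01 changed most. It took 3.32, 3.51 and 5.44% of the counts in replicates 1, 2 and 3 at 25 DPA, against 0.0848, 0.243 and 0.00247% at 13 DPA, with a log2 fold change of 6.17 ± 1.48 (edgeR FDR = 0.0066). Its 13 DPA libraries differed widely among themselves, yet none reached the lowest 25 DPA library. A second unnamed gene, FtPinG0008881000.01, had 21744, 9897 and 46533 scaled FPKM at 25 DPA, against 14.5, 73.2 and 6.48 at 13 DPA (log2 fold change 9.697 ± 1.43, edgeR FDR = 0.00059), the second largest rise among genes with at least 10 FPKM.

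At the other end, FtPinG0005513400.01 had the largest fall among genes with at least 10 FPKM. It had 0 counts in all 25 DPA libraries and 62.7, 53.7 and 36.5 scaled FPKM at 13 DPA, which makes it at least 156-fold lower at 25 DPA with 3 counts per library taken as the limit (edgeR FDR = 9.3e-05). The next, FtPinG0005525100.01, likewise had 0 counts at 25 DPA, against 4.95, 1.402 and 37.8 scaled FPKM at 13 DPA, at least 67.6-fold lower (edgeR FDR = 0.036). The first was even across the 13 DPA libraries and the second was carried by replicate 3. The second call was lost without any single library other than 13 DPA replicate 2 (FDR 0.052 to 0.079, the lowest without 13 DPA replicate 1, then 0.072, 0.078 and 0.079 without 25 DPA replicates 2 and 3 and 13 DPA replicate 3, and the highest without 25 DPA replicate 1). All 8 of the largest falls had 0 counts in every 25 DPA library, and a ranking by fitted fold favours such genes. Like FtPinG0005525100.01, FtPinG0002896200.01, FtPinG0008097300.01 and Novel00578 were carried by 13 DPA replicate 3. The rest of the 8 were more even across the 13 DPA libraries.

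The 3 storage protein genes measured here, all named in the study's text, had low levels beside the most abundant transcripts. Other storage globulin genes of the study were not examined. Since the abundant transcripts carry no name here, storage proteins among them could not be told apart. The globulin gene FtPinG0004288700.01 had 1.07, 3.64 and 2.67 scaled FPKM at 25 DPA, against 0.0208, 0 and 0.0609 at 13 DPA, a log2 fold change of 6.25 ± 1.25 (edgeR FDR = 0.0027). These levels stood for 22, 84 and 51 counts at 25 DPA and for 1, 0 and 3 counts at 13 DPA, so the gene was close to silent at 13 DPA and low at 25 DPA. The glutelin gene FtPinG0000417000.01 had 25.5, 33.8 and 33.9 scaled FPKM at 25 DPA, against 5.72, 23.03 and 5.43 at 13 DPA (1.45 ± 0.51, edgeR FDR = 0.037), and its replicate 2 at 13 DPA lay just under the lowest 25 DPA library. That call was lost without 13 DPA replicate 1 (1.12, FDR = 0.11), without 13 DPA replicate 3 (1.11, FDR = 0.095) and without any single 25 DPA library (edgeR FDR = 0.057, 0.081 and 0.088 without replicates 1, 2 and 3). The other glutelin gene, FtPinG0008579200.01, had 75.5, 86.4 and 105 scaled FPKM at 25 DPA, against 50.97, 127 and 39.7 at 13 DPA, with overlapping groups and no call (0.297 ± 0.40, edgeR FDR = 0.55). Against total counts the fold change of these 3 genes was 5.17, 0.46 and -0.73 in the same order.

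Phytohormone genes fell more often than they rose. The study's list holds 277 genes of ABA, auxin, cytokinin and gibberellin, of which 276 were found in the files under the identifier given and 191 were tested. Of these, 27 rose, 73 fell and 91 were not called, with a median log2 fold change of -0.87 against -0.07 over all genes tested. The background among all tested genes was 16.6% rising and 25.6% falling, and it applies to the counts by hormone and by family below. By hormone, 7 of the 33 tested ABA genes rose and 14 fell, 6 of the 30 gibberellin genes rose and 7 fell, 13 of the 114 auxin genes rose and 50 fell, and 1 of the 14 cytokinin genes rose and 2 fell. With total counts the list had 12 rises and 121 falls.

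**Figure D3:**
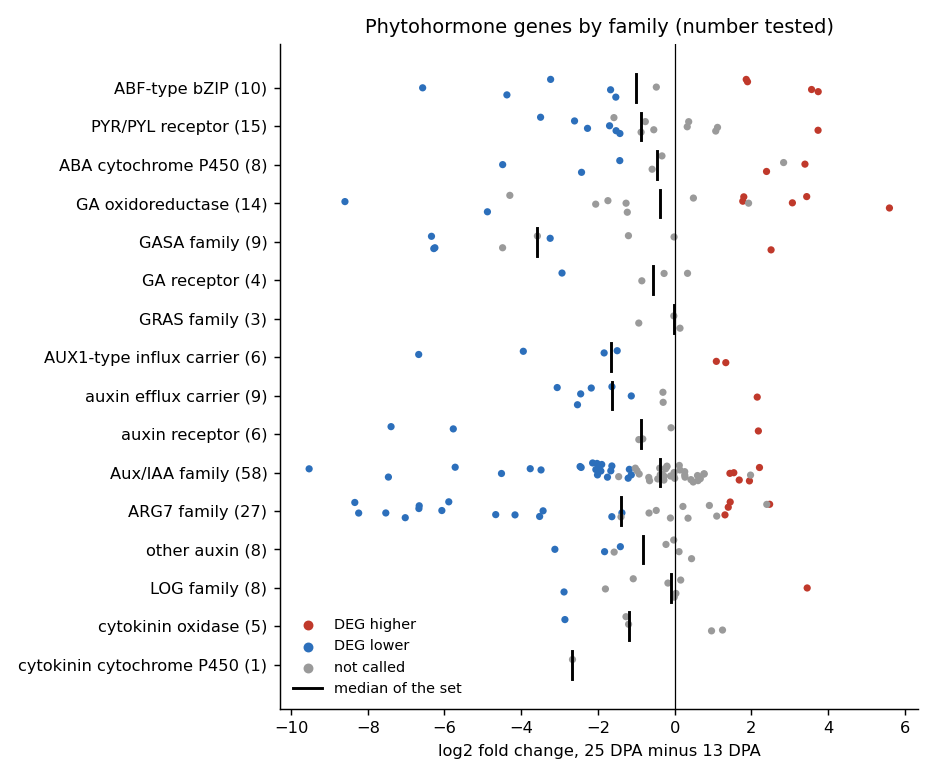
Log2 fold change (x axis, 25 DPA minus 13 DPA) of each tested phytohormone gene by family (y axis, number tested in brackets), with red points for genes higher at 25 DPA, blue for genes lower, grey for genes not called, and a black bar for the median. Falls outnumbered rises in the auxin families and the GASA family, whereas the bZIP family of ABA signalling was divided between 4 rises and 5 falls.

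ABA signalling ends in bZIP transcription factors of the ABF and ABI5 kind, which switch on genes of seed maturation. Of the 10 tested, 4 rose and 5 fell (median -1.004), with 16.6% rising and 25.6% falling over all genes tested. ABI5 itself (FtPinG0003523300.01) had 192, 213 and 274 scaled FPKM at 25 DPA, against 13.9, 30.6 and 12.7 at 13 DPA, and rose by 3.57 ± 0.40 on the log2 scale (edgeR FDR = 0.0002). The lowest 25 DPA library was several times the highest 13 DPA library.

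The 2 genes matched to ABI5-like protein 5 rose with it. FtPinG0003196200.01 had 145, 71.8 and 62.1 scaled FPKM at 25 DPA, against 7.11, 9.31 and 4.35 at 13 DPA (log2 fold change 3.75 ± 0.43). FtPinG0003012600.01 had 54.1, 28.8 and 27.00 scaled FPKM at 25 DPA, against 11.9, 10.97 and 7.17 at 13 DPA (1.87 ± 0.31, edgeR FDR = 0.0011), but 0.78 with total counts, under the fold limit. In both, 25 DPA replicate 1 was about double the other libraries of its stage. The fourth rise, FtPinG0006458700.01, changed by 1.902 ± 0.27, also under the limit with total counts (0.84).

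Other bZIP genes of this list went the opposite way. FtPinG0002143600.01 had 0.831, 0.984 and 0.815 scaled FPKM at 25 DPA, against 25.4, 12.7 and 16.7 at 13 DPA, a change of -4.37 ± 0.32. FtPinG0001379200.01 had 0, 0.192 and 0.231 scaled FPKM at 25 DPA, against 5.39, 7.77 and 29.6 at 13 DPA (-6.57 ± 1.94, edgeR FDR = 0.018), and its 13 DPA level was set largely by replicate 3. Its call was lost when any one 25 DPA library was left out (edgeR FDR = 0.064, 0.053 and 0.056 without replicates 1, 2 and 3). The 3 other falls lay between -3.23 and -1.53.

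The receptors of ABA, the PYR/PYL proteins that inhibit PP2C phosphatases once they bind the hormone, fell more than they rose, with 6 falls and 1 rise among 15 tested (median -0.87). The rise was PYL10 (FtPinG0002311400.01), at 4.59, 4.08 and 7.57 scaled FPKM at 25 DPA, against 0.427, 0.3096 and 0.4603 at 13 DPA (3.74 ± 0.48, edgeR FDR = 0.00032). Its level stayed low beside the most expressed receptor gene, FtPinG0001214600.01, which fell to 13.4, 13.5 and 19.8 scaled FPKM at 25 DPA, against 55.1, 46.9 and 49.1 at 13 DPA (-1.695 ± 0.30). The largest fall among receptors with at least 5 FPKM was that of FtPinG0002102600.01 (1.03, 3.67 and 0.603 at 25 DPA, 10.2, 15.5 and 7.25 at 13 DPA, -2.61 ± 0.58). PYL4 (FtPinG0005799600.01) had 4.98, 7.83 and 7.95 scaled FPKM at 25 DPA, against 2.72, 5.89 and 1.27 at 13 DPA, which overlapped (1.07 ± 0.49, edgeR FDR = 0.093), and it passed the test only without 13 DPA replicate 2 (1.79, edgeR FDR = 0.0077).

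Cytochromes P450 that degrade ABA by oxidation were divided. Of 8 tested, 2 rose and 3 fell, with 16.6% rising and 25.6% falling over all genes tested. FtPinG0002387400.01 had 41.4, 44.3 and 53.5 scaled FPKM at 25 DPA, against 4.42, 5.67 and 3.096 at 13 DPA (3.400 ± 0.26, edgeR FDR = 7.9e-05). FtPinG0003175900.01 rose with it, to 48.2, 22.2 and 39.6 at 25 DPA, against 7.17, 7.38 and 6.304 at 13 DPA (2.398 ± 0.34). In contrast, FtPinG0004462100.01 had 4.92, 6.21 and 6.73 scaled FPKM at 25 DPA, against 53.9, 8.93 and 33.1 at 13 DPA, where it was the highest of the family, and fell, with a log2 fold change of -2.43 ± 0.60 (edgeR FDR = 0.008). Its 13 DPA libraries spread widely, and replicate 2 there came close to the 25 DPA range. FtPinG0003614600.01 was nearly silent at 25 DPA (0.131, 0.349 and 0.0467 scaled FPKM) and had 4.91, 4.38 and 3.102 at 13 DPA (-4.48 ± 0.52).

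**Figure D4:**
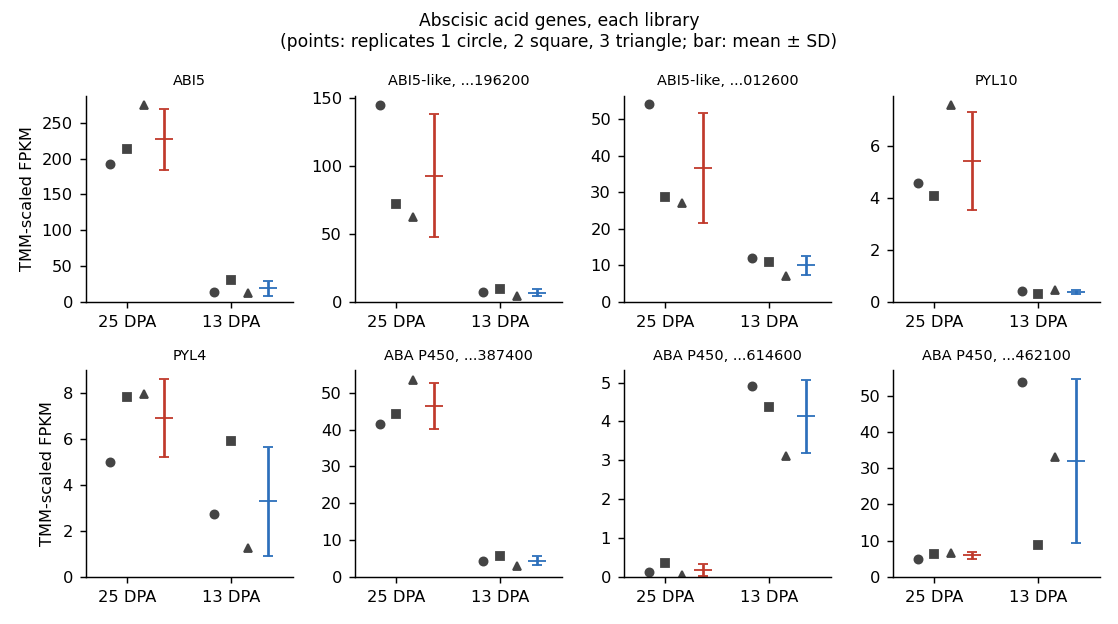
TMM-scaled FPKM (y axis) of 8 ABA genes in the 3 libraries of 25 DPA (left) and 13 DPA (right) of each panel, with the mean ± SD beside them. The ABI5 gene, both ABI5-like genes, PYL10 and the first P450 gene were higher in all 25 DPA libraries than in any 13 DPA library, PYL4 overlapped, and the last 2 P450 genes were lower.

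Gibberellin genes moved in both directions. The iron/ascorbate-dependent oxidoreductases, listed by the study under gibberellin synthesis, had 5 rises and 2 falls among 14 tested, with a median of -0.37. FtPinG0008198800.01 had 76.5, 85.7 and 72.99 scaled FPKM at 25 DPA, against 1.01, 3.87 and 0 at 13 DPA, a rise of 5.603 ± 1.15 (edgeR FDR = 0.0031). FtPinG0007406000.01, the most expressed member, had 53.7, 71.97 and 122 scaled FPKM at 25 DPA, against 9.47, 5.95 and 7.25 at 13 DPA (3.45 ± 0.49). In both genes every 25 DPA library was several times the highest 13 DPA library.

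The GASA family, small cysteine-rich proteins known in Arabidopsis to respond to gibberellin, fell in 4 of 9 tested genes and rose in 1, with the lowest median of the hormone families with several genes (-3.58). FtPinG0006350100.01, the most expressed over both stages, was at 14.7, 10.8 and 91.98 scaled FPKM at 25 DPA, against 525, 219 and 367 at 13 DPA (-3.24 ± 0.77, edgeR FDR = 0.0067). Its replicate 3 at 25 DPA was several times the other libraries of that stage but below all 13 DPA libraries. The next by level, FtPinG0002727000.01, had 242, 99.6 and 149 scaled FPKM at 25 DPA, against 227, 116 and 151 at 13 DPA and was not called (-0.01 ± 0.39), so that it was the higher of the pair at 25 DPA. FtPinG0006417500.01 had 0, 0.426 and 0.257 scaled FPKM at 25 DPA, against 22.7, 15.9 and 20.3 at 13 DPA (-6.34 ± 0.56), and FtPinG0006919600.01 had 0.846, 0.644 and 0.259 at 25 DPA with 67.8, 23.2 and 45.8 at 13 DPA (-6.25 ± 0.51). The single rise, FtPinG0007855800.01, reached 119, 156 and 99.7 scaled FPKM at 25 DPA, against 15.6, 37.7 and 12.4 at 13 DPA (2.52 ± 0.43), and at 25 DPA it exceeded FtPinG0006350100.01 in each of the 3 libraries.

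Of 4 gibberellin receptor genes 1 fell, FtPinG0006952100.01 (0.9302, 1.03 and 0.604 scaled FPKM at 25 DPA, 11.1, 2.91 and 5.77 at 13 DPA, -2.94 ± 0.49), while the most expressed, FtPinG0004588200.01, had 20.5, 19.2 and 24.3 at 25 DPA, against 30.4, 23.4 and 23.6 at 13 DPA (-0.27 ± 0.17, edgeR FDR = 0.2). None of the 3 GRAS genes, which include the repressors of gibberellin responses in other plants, was called. The most expressed, FtPinG0002075100.01, was at 15.4, 23.6 and 24.6 scaled FPKM at 25 DPA, against 65.5, 22.9 and 33.2 at 13 DPA (-0.93 ± 0.39, edgeR FDR = 0.066), and it passed the test without 13 DPA replicate 2 (-1.21, FDR = 0.018).

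Auxin genes made up 114 of the 191 phytohormone genes tested and 50 of the 73 falls. Auxin enters cells through carriers of the AUX1 type, and all 6 tested members of that list were called, 4 lower and 2 higher. Of all genes tested, 42.2% were called, 25.6% lower and 16.6% higher. FtPinG0006908400.01 dropped to 0.115, 0.615 and 0.165 scaled FPKM at 25 DPA, against 43.4, 28.3 and 23.4 at 13 DPA (-6.67 ± 0.69, edgeR FDR = 0.00016). FtPinG0007643300.01 (0.232, 0.651 and 0.331 at 25 DPA, 6.24, 5.91 and 6.88 at 13 DPA, -3.94 ± 0.37) and FtPinG0003888700.01 (4.56, 3.85 and 1.797 at 25 DPA, 13.9, 11.6 and 11.1 at 13 DPA, -1.84 ± 0.32) fell as well. The most expressed carrier went the other way, FtPinG0005765500.01, with 169, 122 and 72.9 scaled FPKM at 25 DPA, against 59.4, 51.8 and 59.4 at 13 DPA (1.09 ± 0.28, edgeR FDR = 0.0093). That rise was under the fold limit without 25 DPA replicate 1 (0.78) and was -0.02 with total counts. Neither of the 2 rises of this list was called with total counts.

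Efflux carriers, which set the direction of auxin flow, fell in 6 of 9 tested genes and rose in 1 (median -1.63), with 25.6% falling and 16.6% rising over all genes tested. The largest fall among those with at least 5 FPKM was that of FtPinG0009541700.01, at 1.101, 0.901 and 0.589 scaled FPKM at 25 DPA, against 6.41, 8.03 and 7.28 at 13 DPA (-3.06 ± 0.30). The most expressed, FtPinG0009346000.01, had 3.62, 5.16 and 5.89 at 25 DPA, against 4.46, 8.95 and 4.71 at 13 DPA and was not called (-0.304 ± 0.29). Of the 6 genes listed as auxin receptors, FtPinG0008266700.01 fell to 0.584, 0.3702 and 1.07 scaled FPKM at 25 DPA. It had 53.7, 17.6 and 38.4 at 13 DPA (-5.77 ± 0.74, edgeR FDR = 0.00033). In contrast, FtPinG0006955500.01 rose to 67.8, 80.1 and 121 at 25 DPA. It had 18.6, 22.4 and 18.2 at 13 DPA (2.19 ± 0.26, edgeR FDR = 0.00025). The study lists both as hormone receptors, the falling gene in the germin family and the rising gene with no family. Whether either acts as a receptor was not tested. By the means, the gene of this list with the highest level differed between the stages. In 13 DPA replicate 2, however, FtPinG0006955500.01 stood above FtPinG0008266700.01, as at 25 DPA.

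The Aux/IAA list, nuclear proteins that include repressors of early auxin genes and auxin response factors (ARFs), had 5 rises and 21 falls among 58 tested (median -0.38). FtPinG0008597700.01 rose most among those with at least 5 FPKM (111, 93.2 and 110.3 scaled FPKM at 25 DPA, 15.03, 18.4 and 34.3 at 13 DPA, 2.21 ± 0.35). FtPinG0001338600.01 had 0 counts at 25 DPA, against 4.82, 5.26 and 6.58 scaled FPKM at 13 DPA, at least 20.7-fold lower at 25 DPA. The most expressed member, FtPinG0004315700.01, had 59.8, 61.4 and 63.8 at 25 DPA, against 115, 106 and 69.7 at 13 DPA, a change of -0.65 ± 0.21 that missed the fold limit (edgeR FDR = 0.026).

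The study names 3 ARF genes in this list, and they did not move together. Novel02020 rose (29.1, 22.5 and 12.8 scaled FPKM at 25 DPA, 7.36, 8.15 and 6.55 at 13 DPA, 1.54 ± 0.29), but changed by 0.47 with total counts. FtPinG0000807700.01 fell (0.542, 0.874 and 0.516 at 25 DPA, 2.12, 2.003 and 3.697 at 13 DPA, -2.01 ± 0.33). FtPinG0008443000.01 fell further (0.0243, 0.0432 and 0.0781 at 25 DPA, 2.79, 1.84 and 3.26 at 13 DPA, -5.72 ± 0.70). The rise belonged to the gene with the highest level of the 3.

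Of the 80 ARG7 genes, a family of small auxin-induced proteins, 16 had no count in the 6 libraries and 27 were tested. Of these 4 rose and 14 fell (median -1.397). FtPinG0009169600.01 had 0 counts at 25 DPA, against 3.86, 3.71 and 3.15 scaled FPKM at 13 DPA, at least 9.07-fold lower at 25 DPA. FtPinG0002363800.01, the most expressed, had 84.3, 113 and 177 scaled FPKM at 25 DPA, against 48.9, 43.99 and 43.9 at 13 DPA (1.45 ± 0.25, 0.304 with total counts). None of the 4 rises of the family was called on total counts. How alike the members are in sequence was not examined, and the sources used here do not say how reads with several matches were counted. The values of single members are therefore uncertain.

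Of the 8 other auxin genes 3 fell, led among those with at least 5 deposited FPKM by FtPinG0004478100.01 (scaled FPKM 1.22, 0.811 and 0.978 at 25 DPA, 4.32, 1.94 and 4.43 at 13 DPA, -1.83 ± 0.47). FtPinG0000464100.01 was the most expressed gene of the whole hormone list, at 2336, 2224 and 3385 scaled FPKM at 25 DPA, against 2323, 4340.0 and 1406 at 13 DPA, with a change of -0.02 ± 0.49 and overlapping groups.

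Of the 14 cytokinin genes tested, 1 rose and 2 fell. Of the 8 tested LOG genes, whose products release active cytokinin from its nucleotide, FtPinG0001266800.01 rose to 28.7, 22.9 and 22.9 scaled FPKM at 25 DPA, against 1.91, 4.15 and 0.745 at 13 DPA (3.46 ± 0.52, edgeR FDR = 0.00071), and 1 fell. The LOG gene with the highest mean deposited FPKM over both stages, FtPinG0007342200.01, which ranked below FtPinG0001266800.01 on scaled FPKM, had 9.09, 10.03 and 12.9 at 25 DPA, against 12.2, 7.47 and 8.97 at 13 DPA (0.16 ± 0.23). Among the 5 cytokinin oxidases, which degrade the hormone, 1 fell, and the most expressed, FtPinG0003101700.01, had 2.797, 5.81 and 3.81 at 25 DPA, against 5.78, 18.05 and 6.14 at 13 DPA (-1.27 ± 0.48). Its FDR was just over the limit (0.05), and it passed without 13 DPA replicate 1 (edgeR FDR = 0.033), without 13 DPA replicate 3 (0.034) and without 25 DPA replicate 2 (0.044).

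Flavonoid genes moved in both directions. Of the 47 genes of the study's list 31 were tested, and 10 rose, 12 fell and 9 were not called (median -0.81, against -0.07 over all genes tested). Over all genes tested, 16.6% rose and 25.6% fell. No PAL, CHS or CHI gene rose, but only 3, 3 and 1 of them were tested. Rises were found among UFGT genes (6 of 12 tested), F3'H genes (2 of 4) and FLS genes (2 of 6). With total counts the list had 8 rises and 17 falls.

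At the entry, phenylalanine is turned into a coumaroyl ester by PAL, C4H and 4CL. FtPAL (FtPinG0003900700.01) had 8.13, 22.3 and 9.98 scaled FPKM at 25 DPA, against 61.9, 64.9 and 24.5 at 13 DPA (-1.903 ± 0.48, edgeR FDR = 0.0086). FtC4H (FtPinG0001575100.01) had 10.2, 46.6 and 19.99 at 25 DPA, against 118, 143 and 53.3 at 13 DPA (-2.03 ± 0.59, edgeR FDR = 0.017, and 0.064 without 25 DPA replicate 3). Ft4CL (FtPinG0005072700.01) had 1.75, 6.48 and 3.89 at 25 DPA, against 35.4, 27.6 and 19.3 at 13 DPA (-2.76 ± 0.57). All 3 were lower in every 25 DPA library than in any 13 DPA library, as were 34.2% of all genes tested, and within 25 DPA replicate 2 was the highest in each. The other PAL gene the study names, FtPinG0008236900.01, kept 44.6, 65.7 and 99.1 scaled FPKM at 25 DPA and had 36.9, 63.6 and 22.5 at 13 DPA, was not called (0.77 ± 0.41, edgeR FDR = 0.14), and passed the test as a rise without 13 DPA replicate 2 (1.24, edgeR FDR = 0.025).

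The next steps build and close the flavonoid skeleton. FtCHS (FtPinG0008131000.01), chalcone synthase, had 16.5, 55.5 and 26.2 scaled FPKM at 25 DPA, against 147, 186 and 66.9 at 13 DPA (-2.03 ± 0.56, edgeR FDR = 0.013, and 0.053 without 25 DPA replicate 3). FtCHI (FtPinG0002790600.01), chalcone isomerase, had 7.94, 12.97 and 10.4 at 25 DPA, against 48.2, 51.3 and 28.6 at 13 DPA (-2.03 ± 0.34, edgeR FDR = 0.0011). In scaled FPKM both means were higher at 19 DPA than at 13 DPA, with 384, 361 and 163 for FtCHS and 59.8, 77.8 and 36.6 for FtCHI at 19 DPA. For FtCHI this depended on the scaling. Its share of counts was 0.00885, 0.00869 and 0.00542% at 19 DPA, against 0.0118, 0.0103 and 0.00788% at 13 DPA. The FtCHS share was 0.0549, 0.039 and 0.0233% at 19 DPA, against 0.0349, 0.036 and 0.0178% at 13 DPA.

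Flavonol synthase turns dihydroflavonols into flavonols. FtFLS (FtPinG0006907100.01), the most expressed FLS gene, had 80.1, 124 and 118 scaled FPKM at 25 DPA, with 205, 314 and 146 at 13 DPA (-1.05 ± 0.35, edgeR FDR = 0.03). This fall was at the limit of a call, and it was lost without any one of the libraries other than 13 DPA replicate 3 (log2 -0.71 and FDR 0.096 without 13 DPA replicate 2, -0.87 and 0.11 without 25 DPA replicate 1, and FDR of 0.059, 0.054 and 0.06 without 13 DPA replicate 1, 25 DPA replicate 2 and 25 DPA replicate 3). FtPinG0006907000.01 fell to 1.900, 5.78 and 2.95 scaled FPKM at 25 DPA, against 30.4, 26.8 and 17.6 at 13 DPA (-2.81 ± 0.51), and FtPinG0001318800.01 to 0.334, 0.9898 and 0.597 at 25 DPA, against 4.49, 9.97 and 1.88 at 13 DPA (-3.07 ± 0.72). Both FLS rises were genes of low level, FtPinG0001742000.01 (1.82, 1.14 and 3.79 at 25 DPA, 0.137, 0.367 and 0.0892 at 13 DPA, 3.47 ± 0.78) and FtPinG0008448800.01 (2.57, 5.301 and 2.39 at 25 DPA, 0.642, 0.845 and 0.394 at 13 DPA, 2.45 ± 0.66), and the second was not called with total counts.

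Flavonoid hydroxylases decorate the B ring. FtF3'H (FtPinG0002353900.01) had 14.8, 25.3 and 18.9 scaled FPKM at 25 DPA, against 35.8, 38.4 and 31.6 at 13 DPA, a change of -0.84 ± 0.31 that missed the fold limit (edgeR FDR = 0.043) and passed it without 25 DPA replicate 2 (-1.06). Other members of the F3'H list rose, FtPinG0003629700.01 to 20.5, 12.4 and 15.7 at 25 DPA, against 3.51, 3.88 and 3.08 at 13 DPA (2.22 ± 0.26), and FtPinG0003629500.01 to 8.63, 8.14 and 9.34 at 25 DPA, against 1.33, 0.957 and 0.703 at 13 DPA (3.12 ± 0.43). FtF3'5'H (FtPinG0003628500.01) was low at both stages (0.197, 0.105 and 0.0844 at 25 DPA, 2.13, 2.58 and 1.82 at 13 DPA) and fell, with a log2 fold change of -4.04 ± 0.46. The most expressed F3'5'H gene, FtPinG0006940000.01, had 6.01, 8.34 and 2.51 at 25 DPA, against 10.02, 14.6 and 5.01 at 13 DPA (-0.81 ± 0.54) and was not called.

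UFGT genes encode glycosyltransferases that attach sugars to flavonoids, and they held most of the rises. Of 12 tested, 6 rose and 3 fell (median 1.203), and with total counts 5 rose and 5 fell (median 0.17). FtPinG0001031700.01 had 77.8, 108 and 126 scaled FPKM at 25 DPA, against 17.3, 32.3 and 18.5 at 13 DPA (2.196 ± 0.31, edgeR FDR = 0.00045). FtPinG0003585500.01 had 20.9, 25.7 and 30.7 at 25 DPA, against 0.8395, 1.796 and 0.787 at 13 DPA (4.498 ± 0.35, edgeR FDR = 7.9e-05), and FtPinG0003187300.01 had 20.2, 29.8 and 43.1 at 25 DPA, against 1.74, 3.86 and 1.72 at 13 DPA (3.67 ± 0.42). All 25 DPA libraries stood above all 13 DPA libraries in these 3 genes, as in 28.9% of all genes tested, and with total counts their rises were 1.12, 3.43 and 2.595. By comparison FtUFGT (FtPinG0006606900.01), the gene chosen by the study for RT-qPCR, had 66.1, 105 and 111 at 25 DPA, against 68.3, 142 and 50.5 at 13 DPA and was not called (0.11 ± 0.37, edgeR FDR = 0.82). With total counts FtUFGT changed by -0.93 (edgeR FDR = 0.021), under the fold limit. The study's RT-qPCR gave this gene a lower level at 25 DPA than at 13 DPA. The largest fall among UFGT genes with at least 5 FPKM, FtPinG0003186500.01 (0.515, 1.995 and 1.102 at 25 DPA, 3.81, 10.2 and 2.31 at 13 DPA, -2.16 ± 0.66), was lost without 13 DPA replicate 2 (FDR = 0.07), 25 DPA replicate 1 (0.067) or 25 DPA replicate 3 (0.064).

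**Figure D5:**
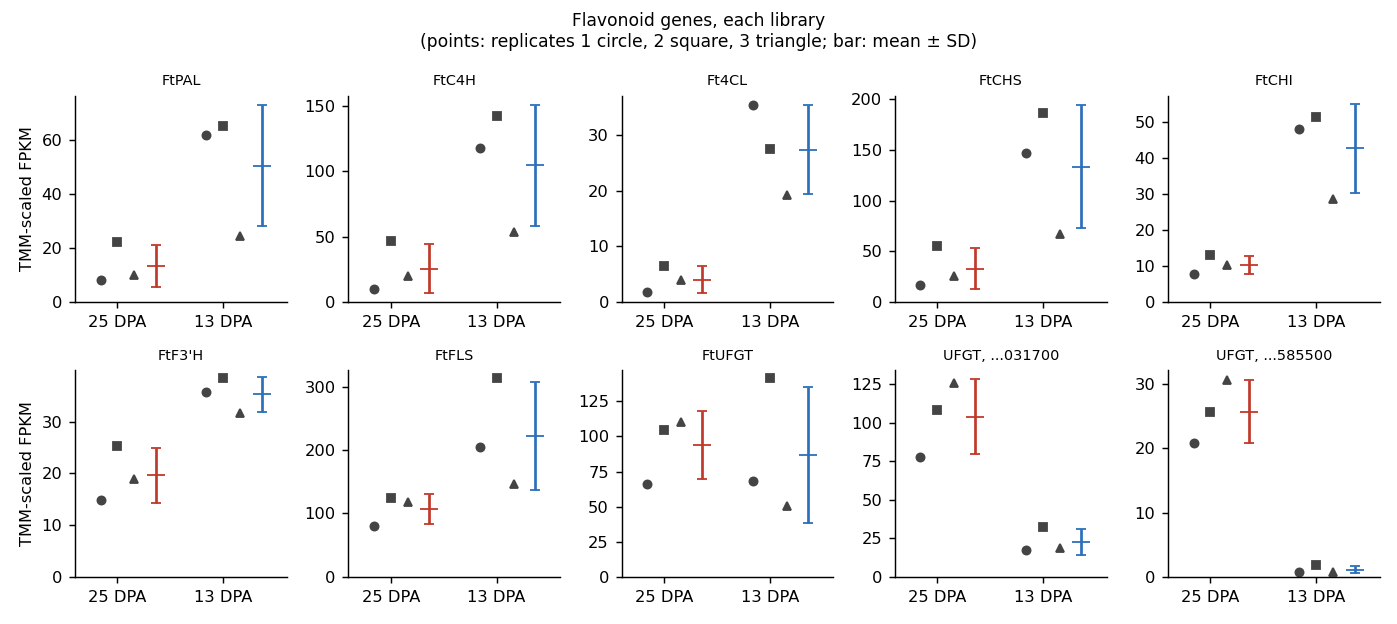
TMM-scaled FPKM (y axis) of 10 flavonoid genes in the 3 libraries of 25 DPA (left) and 13 DPA (right) of each panel, with the mean ± SD beside them. FtPAL to FtFLS lay lower in every 25 DPA library, FtUFGT overlapped, and the last 2 UFGT genes lay higher in every 25 DPA library.

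Starch synthases lengthen the glucan chains of starch. Of the 20 genes the study lists 17 were tested, and 2 rose, 4 fell and 11 were not called (median -0.77, against -0.07 over all genes tested). The 6 calls were 35.3% of the 17, against 42.2% over all genes tested. SS4 (FtPinG0008723400.01), a synthase known in Arabidopsis for starting starch granules, had 21.2, 19.3 and 16.8 scaled FPKM at 25 DPA, against 7.302, 9.83 and 7.52 at 13 DPA (1.22 ± 0.17, edgeR FDR = 0.0005). Both genes matched to WAXY, the granule-bound synthase that makes amylose, fell. FtPinG0007470100.01 had 2.53, 2.52 and 2.14 at 25 DPA, against 8.44, 9.396 and 7.704 at 13 DPA (-1.83 ± 0.19), and FtPinG0000380300.01 had 9.21, 14.4 and 6.13 at 25 DPA, against 20.8, 44.1 and 22.3 at 13 DPA (-1.55 ± 0.38, edgeR FDR = 0.0078). With total counts neither rise was called (0.13 for SS4) and 10 genes fell.

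Several starch synthases differed widely between the replicates of 13 DPA. In 5 of the 17 (29.4%), 13 DPA replicate 3 had at least 1 scaled FPKM and was at least 4-fold above both other libraries of its stage, against 1.33% of all genes tested. The widest gap was that of FtPinG0003227000.01, with 0.814, 0.362 and 1.06 scaled FPKM at 25 DPA, against 0.186, 0.341 and 10.5 at 13 DPA, and it was not called (-2.304 ± 1.58, edgeR FDR = 0.24). The next was FtPinG0009838000.01, the most expressed of the list, whose scaled FPKM was 73.2, 14.4 and 674 in the 13 DPA libraries, 27.8, 1.67 and 1106 in those of 19 DPA and 1.597, 0.236 and 6.97 in those of 25 DPA. Replicate 3 was the highest at each stage, most clearly at 13 and 19 DPA. The groups did not overlap and the gene was called (-6.44 ± 2.45, edgeR FDR = 0.05), but the call was lost when any one of the 6 libraries was left out (FDR 0.051 to 0.16, with the highest, and a change of -3.91, without 13 DPA replicate 3). FtPinG0005565800.01 was steadier and had 66.6, 78.5 and 74.6 at 25 DPA, against 133, 112 and 129 at 13 DPA, a change of -0.77 ± 0.21 under the fold limit.

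The MADS-box and NST regulators fell with few exceptions. The study's RT-qPCR set holds 7 MADS-box genes, named after the SEPALLATA and AGAMOUS-like factors that specify floral organs in Arabidopsis, and FtGAIL, and 7 of the 8 fell (median -1.58, with 25.6% falling over all genes tested). FtAGL (FtPinG0002495300.01), the most expressed, had 15.7, 27.5 and 26.7 scaled FPKM at 25 DPA, against 216, 283 and 155 at 13 DPA (-3.23 ± 0.33, edgeR FDR = 0.00013). FtSEP1-2 (FtPinG0005096000.01) had 1.46, 1.75 and 1.496 at 25 DPA, against 32.7, 36.5 and 23.4 at 13 DPA (-4.29 ± 0.33, edgeR FDR = 7.9e-05). FtSEP1L (FtPinG0004510400.01) followed with 11.6, 22.1 and 14.97 at 25 DPA, against 82.4, 96.1 and 56.3 at 13 DPA (-2.27 ± 0.32). In these 3 genes the 2 stages were apart by more than 2-fold between their nearest libraries.

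The other 4 genes of the set that fell had smaller log2 fold changes, FtGAIL (FtPinG0003934400.01) -1.99 ± 0.35, FtAGL9 (FtPinG0000494800.01) -1.14 ± 0.21, FtSEP1L-2 (FtPinG0006608000.01) -1.17 ± 0.35 and FtSEP1 (FtPinG0004500000.01) -1.08 ± 0.33. The call of FtSEP1L-2 was lost without 13 DPA replicate 2 (edgeR FDR = 0.063), 25 DPA replicate 1 (0.075) or 25 DPA replicate 3 (0.067), and that of FtSEP1 without 13 DPA replicate 2 (0.066) or 25 DPA replicate 1 (0.071). FtSEP3L (FtPinG0005485500.01) was low, at 2.93, 1.42 and 3.14 scaled FPKM at 25 DPA, against 0.758, 2.26 and 2.29 at 13 DPA, and was not called (0.49 ± 0.73). The sign of its change depended on the scaling, with -0.64 for total counts, where it was not called either. The study's RT-qPCR gave FtSEP3L a lower level at 25 DPA than at 13 DPA.

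The 3 NST genes, named after NAC factors that switch on secondary wall formation in Arabidopsis, all fell (median -4.22). FtNST1-2 (FtPinG0002596000.01) had 0.0492, 2.71 and 0.0526 scaled FPKM at 25 DPA, against 26.7, 18.9 and 8.56 at 13 DPA (-4.22 ± 1.06, edgeR FDR = 0.0085). FtNST2 (FtPinG0007471500.01) had 0, 3.11 and 0.216 at 25 DPA, against 12.9, 15.8 and 2.55 at 13 DPA (-3.18 ± 1.08, edgeR FDR = 0.032), and FtNST1 (FtPinG0000381200.01) had 0, 0.231 and 0 at 25 DPA, against 1.66, 3.87 and 0.562 at 13 DPA (-4.55 ± 1.12). In each gene 25 DPA replicate 2 held nearly all of what remained at that stage, and for FtNST2 it overlapped with 13 DPA replicate 3. The FtNST2 call was lost without 13 DPA replicate 1 (FDR = 0.075), 13 DPA replicate 2 (0.088), 25 DPA replicate 1 (0.064) or 25 DPA replicate 3 (0.096). Markers of single seed tissues were not analysed here, and the part of tissue proportions in the changes between stages was not tested.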

How the data were processed

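Seeds of 13, 19 and 25 DPA were sequenced as paired-end reads, 3 libraries each. The deposited counts are the authors' whole-read totals per gene, made from reads aligned to the Pinku1 genome (TopHat2 2.0.12 and Bowtie2 2.0.6 in the submitters' processing notes), over annotated genes and new genes of an assembly. The deposited FPKM were computed by the authors from the same counts, gene length and library total. The sources used here do not give the counting tool, its strand setting or its treatment of reads with several matches.

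Counts were fitted in R 4.3.3 with edgeR 4.0.16 (TMM, filterByExpr, robust quasi-likelihood test, all 9 libraries, no block). Benjamini-Hochberg adjustment ran over the 23609 genes that the filter kept of 33940. The DEG limits, FDR 0.05 and log2 fold 1, are a reading of an incomplete sentence of the study's methods. The standard error was the fold change divided by the square root of F. The common biological coefficient of variation was 0.362. The fit was also run on simulated data in which few genes changed, equally in both directions, so that run could not test the choice of scaling. Gene length was recovered from the deposited counts and FPKM. Python 3.11.15 (pandas 2.3.3, numpy 2.4.6, matplotlib 3.10.9) made the tables and plots.

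The phytohormone, flavonoid, starch and RT-qPCR lists are the study's own, chosen in part on these samples, and names of genes are those the study gives. Named are the genes the study names, in each list the largest rise and fall with at least 5 FPKM in the higher stage and the most expressed member, and, of the 8 largest rises and falls with at least 10 FPKM and no overlap and of the 10 most abundant genes per stage, 2 of each direction. Other members named were chosen after their values were seen. The comparison and lists were chosen with earlier results of these data known.

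Tried as alternatives were another test (DESeq2 1.42.0, or limma 3.58.1 on log2 of FPKM plus 1 or 0.1), other scaling (RLE, upper-quartile, total counts, or TMM computed without the 50 top genes), unfiltered genes, a fit of the 6 libraries alone, a replicate block, other DEG limits, and leaving out single libraries.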

Additional observations from a re-analysis of the deposited data

How the results depend on the processing

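The number of DEGs stayed within 1.5 times 9964 under all 20 alternatives, between 7910 (FDR 0.01) and 13982 (total counts), and DESeq2 gave 10843. The split by direction did not. With total counts 1469 genes were higher and 12513 lower at 25 DPA, and limma on log2(FPKM + 1) gave 1291 and 10489, on log2(FPKM + 0.1) 1516 and 12371, and on log2(FPKM + 1) without a filter 1286 and 10517. These alternatives use no scaling factor between libraries. With total counts, an alternative chosen for this value after seeing the data, the median part of the change present at 19 DPA was 22.1% for the rises and 39.7% for the falls, the opposite order from TMM (42.8% and 23.97%). Starch DEGs numbered 6, and 10 with total counts. The rise of FtPinG0005765500.01 (an AUX1-type gene) became -0.018 with total counts, and -0.097 with limma on log2(FPKM + 1), with or without a filter, and -0.0995 with the smaller pseudocount, none of them past the threshold. Leaving out single libraries gave 8870 to 10467 DEGs, with the fewest without 13 DPA replicate 1 and the most without 13 DPA replicate 2. In those fits 3421 to 4313 genes were higher, 5444 to 6154 lower, and the lists held 95 to 106 phytohormone (100 as reported), 19 to 22 flavonoid (22) and 4 to 7 starch DEGs.

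With the replicate block there were 10311 DEGs, 4093 higher and 6218 lower. Deviations from the stage mean were correlated at -0.03, 0.01 and 0.13 between same-numbered libraries, and only those numbered 3 correlated best with each other, so the numbers were not treated as a pairing. Among the genes named, it brought the call of the cytokinin oxidase FtPinG0003101700.01 and took away that of FtFLS. Counts were lower at 25 DPA, where the median over all genes in the files, tested or not, was 30 to 42, against 108 to 134 at 13 DPA. What this cost in precision was not tested. The spread between replicates was larger at 13 DPA. There the biological coefficient of variation of the stage alone was 0.384, against 0.306 at 25 DPA.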

Other observations

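With TMM, the new genes of the authors' assembly moved the other way from the annotated genes. Of 1585 new genes tested, 25.9% rose and 18.1% fell (median log2 fold change 0.30), whereas of 22024 annotated genes 15.9% rose and 26.2% fell (median -0.09). These signs hold for TMM only, since total counts shifted the median over all tested genes by -1.12. The 2 groups were not compared with total counts, and the part of expression level in their difference was not tested. With no annotation, what these new genes encode is not analysed here. Gene length, recovered from the deposited files, differed little between calls, with a median of 1213 bases for the genes higher at 25 DPA, 1240.5 bases for those lower and 1305 bases for those not called. Beside the 9964 DEGs, 1888 genes were higher and 1049 lower at 25 DPA at an FDR of at most 0.05 (edgeR) with a change under the fold limit.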
